A study of Mus musculus with 22 samples.

Results

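The 9 genes described here belong to the MHC class II antigen presentation pathway and were measured in mouse lung RNA. They were chosen by symbol in the deposited gene table (H2-Aa, H2-Ab1, H2-Eb1, H2-DMa, H2-DMb1, H2-Oa, H2-Ob, Cd74 and Ciita). All 9 were found among its 20938 genes, and all 9 passed the filter on low values that left 15682 genes for testing. Expression was given as fragments per kilobase of transcript and per unit of mapped fragments (FPKM), which allows levels to be compared between genes per length.

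The 22 libraries came from lungs of BALB/c mice, 1 library per mouse, with no genetic alteration named. The treatment text has every mouse injected intraperitoneally at 49 days of age for sensitization. A boost followed at 63 days and the aerosol began at 70 days. The aerosol was phosphate-buffered saline (PBS), the airway-constricting muscarinic agonist methacholine (MCh), or ovalbumin (OVA), an egg-white protein used as an allergen. Aerosol was given daily for 3 days (short) or 3 times a week over 4 weeks (long). Each protocol had 3 libraries from PBS mice, 4 from MCh mice and 4 from OVA mice. The labels disagree on some points: sample titles give 4 days for the short MCh group and describe PBS and MCh mice as normal, and the series text names tracheal tissue where the samples name lung. The agent used for sensitization is not named. Long MCh and long OVA libraries could be matched to their group only and are called a to d.

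MHC class II molecules are pairs of an α and a β chain that show peptides from endosomes to CD4 T cells. The invariant chain, encoded by Cd74, holds newly made pairs and guides them to endosomes. There H2-DM exchanges its remnant for antigenic peptides, and H2-DO restrains H2-DM, mainly in B cells. Ciita is the coactivator that switches on the class II genes. It is recruited to an X box and a Y box that lie shortly upstream of their start sites. In lung, class II molecules are known on dendritic cells, macrophages, B cells and alveolar type 2 epithelial cells.

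Of the 9 genes, 7 lie within the class II region of chromosome 17 on mm10. H2-Oa is at chr17:34092340-34095234, H2-DMa at chr17:34119541-34139101, H2-DMb1 at chr17:34153072-34160230, H2-Ob at chr17:34238903-34254414 and H2-Ab1 at chr17:34257689-34269419. H2-Aa is at chr17:34282744-34287823 on the minus strand and H2-Eb1 at chr17:34305867-34316674. Ciita is at chr16:10480059-10528418. These are whole-gene positions from GENCODE on mm10.

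The RefSeq promoter table (GRCm38.p6, the assembly of mm10, 250 bases before to 50 after a start) held 6 of the 9 genes. It had no entry for H2-Ab1, Cd74 and Ciita. The stretch from 118 to 39 bases before the start is shown for 4 of them, 2 genes of the antigen-presenting molecules and both genes of H2-DO, because these pairs behaved differently across libraries and each stretch holds the Y core. The X pattern was found in H2-Eb1 and H2-Ob and not in H2-Aa or H2-Oa. As it was built from the letters of H2-Eb1 and H2-Ob, its absence does not show that the others lack an X box. Capitals mark the Y core GATTGG, the pattern AACNNATGATGC that covers an X box, and TGACGTCA, a cyclic AMP response element. The sequences run 5′ to 3′ on the gene's strand.
H2-Aa: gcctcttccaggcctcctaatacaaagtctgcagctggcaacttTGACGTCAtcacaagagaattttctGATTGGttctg
H2-Eb1: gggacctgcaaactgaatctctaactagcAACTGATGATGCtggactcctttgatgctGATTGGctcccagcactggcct
H2-Ob: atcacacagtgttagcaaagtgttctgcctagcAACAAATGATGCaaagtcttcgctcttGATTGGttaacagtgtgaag
H2-Oa: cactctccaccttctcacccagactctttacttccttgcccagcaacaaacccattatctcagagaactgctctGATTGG
The windows are chr17:34287862-34287941 on the minus strand for H2-Aa, and on the plus strand chr17:34305749-34305828 for H2-Eb1, chr17:34238787-34238866 for H2-Ob and chr17:34092261-34092340 for H2-Oa. Positions count from the RefSeq start, which for H2-Oa lies 39 bases inside the GENCODE gene, so the last base of its window is the first base of that gene. GATTGG began at position -49 in H2-Aa, -60 in H2-Eb1, -58 in H2-Ob, -44 in H2-Oa and -62 in H2-DMb1, and at -199 of 1 of the 2 listed H2-DMa starts. On either strand it occurs in 16.1% of all 32851 promoters of the table. AACNNATGATGC was taken from the letters that H2-Eb1 and H2-Ob share, after these sequences had been read, so its presence in those 2 is no finding. It was present in H2-Eb1 at -89, H2-Ob at -85 and H2-DMb1 at -92, and in the neighbouring H2-DMb2 at -121, and occurs on either strand in 13 promoters of the table (0.0396%). The X and Y letters were 17 bases apart in H2-Eb1 and 15 in H2-Ob. TGACGTCA, at -74 in H2-Aa, occurs in 1.79% of promoters. The motifs do not overlap one another in these windows. The reference is that of C57BL/6, so BALB/c bases may differ.

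The labelled tissue was checked with 10 markers of alveolar type 2 cells, none of which was listed at 0 in any library, and the surfactant gene Sftpc averaged 4689 ± 83.7 FPKM (SD, n = 3) in long PBS, its lowest group. In long MCh a, long MCh c and short MCh 1, 28.3 to 34.3% of genes were listed at 0, against 22.5 to 25.3% elsewhere. Values also followed transcript length to a different degree in each library: Spearman's rho between a gene's deviation from its mean and its length was -0.48 to -0.40 in short OVA, -0.03 to 0.28 in short PBS and -0.64 in short MCh 4. Short transcripts thus read relatively higher in short OVA. As 8 of the 9 genes have transcripts of 1088 to 2670 bases and Ciita one of 4237, fold changes with the trend removed are given beside the main ones.

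**Figure D1:**
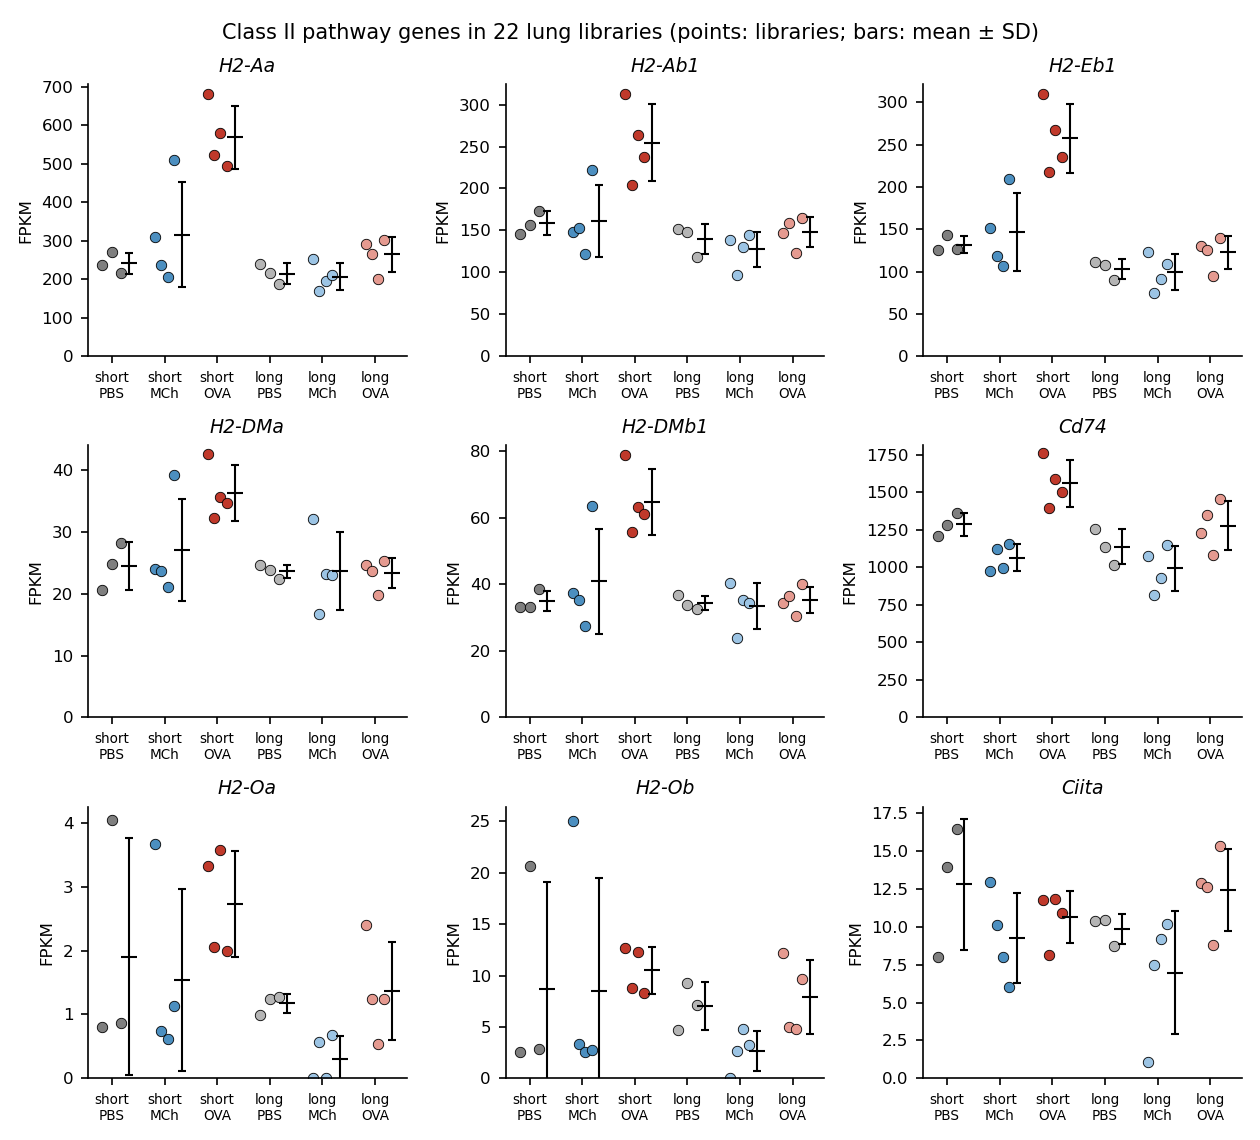
FPKM of the 9 genes in each of the 22 libraries, on linear axes from 0, with points for libraries and bars for the group mean ± SD (cut at 0). The 4 short OVA libraries lie above all 3 short PBS libraries for H2-Aa, H2-Ab1, H2-Eb1, H2-DMa, H2-DMb1 and Cd74, while H2-Oa and H2-Ob have a single high library in short PBS and in short MCh.

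After 3 days of challenge the genes of the antigen-presenting chains and of H2-DM were higher in OVA lungs than in PBS lungs. Of the 9 genes 5 rose and none fell: H2-Aa, H2-Eb1, H2-DMb1, H2-Ab1 and H2-DMa. In this comparison 12.4% of all tested genes were called higher, a gene being called at an adjusted p under 0.05 (limma over all tested genes, Benjamini-Hochberg). The fold changes of the 9 genes had a median of 0.67 on the log2 scale, against -0.059 over all tested genes. With the length trend removed 3 of the 9 were called higher, where 1875 of 15475 tested genes were. The median of the 9 was then 0.43, against -0.015 over all tested genes. Cd74, H2-Oa, H2-Ob and Ciita did not pass.

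H2-Aa, the α chain of the I-A molecule, stood at 238, 271 and 217 FPKM in short PBS 1 to 3. In short OVA 1 to 4 it stood at 681, 523, 579.6 and 495 FPKM. The groups did not overlap, and the lowest OVA library was well above the highest PBS library. The log2 difference was 1.23 ± 0.23 (SE), a 2.34-fold change, with an adjusted p of 0.000657. With the length trend removed it was 0.94 (adjusted p = 0.000977).

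H2-Ab1, the I-A β chain, read 146, 157 and 174 FPKM in short PBS and 313, 204, 264 and 238 FPKM in short OVA. The groups again did not overlap, but the gap between them was narrower than for H2-Aa. The log2 difference was 0.67 ± 0.18 (adjusted p = 0.0115). It did not pass with the length trend removed (0.41, adjusted p = 0.0698) or without short PBS 1 (0.61, adjusted p = 0.0511).

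H2-Eb1, the β chain of the I-E molecule, read 125, 143 and 127 FPKM in short PBS. In short OVA it read 309, 217, 267 and 236 FPKM, every library above every PBS library. The log2 difference was 0.95 ± 0.20 (adjusted p = 0.00200), and 0.82 with the length trend removed (adjusted p = 0.00358).

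The α chain partner of H2-Eb1 is Ea. It is defective in C57BL/6, where the annotation lists it as the polymorphic pseudogene H2-Ea-ps (chr17:34341959-34344645), but is a working gene in BALB/c. H2-Ea-ps averaged 111 ± 13.2 FPKM in short PBS and 216 ± 31.9 FPKM in short OVA (SD, n = 3 and 4). It rose by 0.95 ± 0.20 on the log2 scale (adjusted p = 0.00175), the same size as its partner. Class II chains differ in sequence between the BALB/c and C57BL/6 haplotypes. How far this lowered the aligned fragments of any one chain was not tested, and it is the same in all groups.

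H2-DM is made of H2-DMa and a β chain from H2-DMb1 or its close copy H2-DMb2. H2-DMb1 read 33.3, 33.2 and 38.6 FPKM in short PBS and 79.0, 55.7, 63.1 and 61.2 FPKM in short OVA. It rose by 0.87 ± 0.21 (adjusted p = 0.00489), and by 0.66 with the length trend removed (adjusted p = 0.0152). H2-DMa read 20.6, 24.8 and 28.2 FPKM in short PBS and 42.7, 32.2, 35.7 and 34.7 FPKM in short OVA. The groups did not overlap, yet the call on H2-DMa was close to the threshold (0.56 ± 0.20, adjusted p = 0.0435). It was lost with the length trend removed (0.43, adjusted p = 0.123) and when any 1 of the 7 libraries was left out (0.44 to 0.67, adjusted p = 0.0501 to 0.179). H2-DMb2 averaged 18.5 ± 9.57 FPKM in short PBS and 36.7 ± 4.08 FPKM in short OVA (SD, n = 3 and 4) and rose by 1.08 ± 0.28 (adjusted p = 0.00837). Reads shared by the 2 β genes could be split between them, so their separate values are uncertain.

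Cd74, the invariant chain (chr18:60803848-60812652), was the most abundant of the 9 genes in every group. It read 1208, 1284 and 1365 FPKM in short PBS and 1765, 1395, 1589 and 1499 FPKM in short OVA. The groups did not overlap although the nearest libraries were close, and the difference did not pass (0.28 ± 0.14, adjusted p = 0.150). Cd74 is thus a sixth gene whose groups were apart, where 23.2% of all tested genes were higher in OVA with no overlap. With the length trend removed the difference was 0.045 (adjusted p = 0.854).

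The proportion of the invariant chain to the chains it holds was read from ratios. The ratio of Cd74 to H2-Aa, both in FPKM, was 5.37 ± 0.82 in short PBS and 2.76 ± 0.19 in short OVA (SD, n = 3 and 4). The lowest short PBS library was at 4.74 and the highest short OVA library at 3.03. Short MCh stood at 3.75 ± 1.26 (SD, n = 4), with libraries from 2.27 to 4.87 on both sides of the OVA range. In the long protocol the ratio was 5.30 ± 0.11 in PBS and 4.88 ± 0.49 in OVA (SD, n = 3 and 4), and the groups overlapped. The ratio of H2-Aa to H2-Ab1 was 1.54 ± 0.26 in short PBS and 2.25 ± 0.21 in short OVA (SD, n = 3 and 4), with no overlap between these groups. Short MCh, at 1.56 to 2.30, overlapped short OVA. These ratios were not tested.

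The 2 listed transcripts of Cd74 differ by an added exon in the longer one. The longer made up 18.7 to 26.9% of Cd74 in all 22 libraries, 19.6 to 22.4% in short PBS and 21.2 to 23.3% in short OVA. The groups overlapped, and the share was not tested.

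H2-Oa and H2-Ob encode the α and β chains of H2-DO. H2-Ob read 2.58, 20.7 and 2.88 FPKM in short PBS and 12.6, 8.77, 12.2 and 8.33 FPKM in short OVA. A single PBS library, short PBS 2, stood above all OVA libraries, and the other two stood below all of them. H2-Oa had the same shape, at 0.803, 4.05 and 0.863 FPKM in short PBS and 3.32, 2.06, 3.58 and 1.99 FPKM in short OVA. Neither passed, with log2 differences of 0.84 ± 0.78 for H2-Ob (adjusted p = 0.478) and 0.65 ± 0.48 for H2-Oa (adjusted p = 0.349). Without short PBS 2 and short MCh 1, a setting chosen after seeing the data, H2-Oa was called at 1.24 (adjusted p = 0.0289) and H2-Ob stood at 1.75 (adjusted p = 0.0607).

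Ciita read 8.0, 14.0 and 16.4 FPKM in short PBS and 11.8, 8.14, 11.8 and 10.9 FPKM in short OVA. The OVA libraries lay within the range of the PBS libraries. The log2 difference was -0.21 ± 0.46 (adjusted p = 0.791), with a 95% interval from -1.16 to 0.74. This interval is too wide to show that the level of Ciita was the same in both groups.

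**Figure D2:**
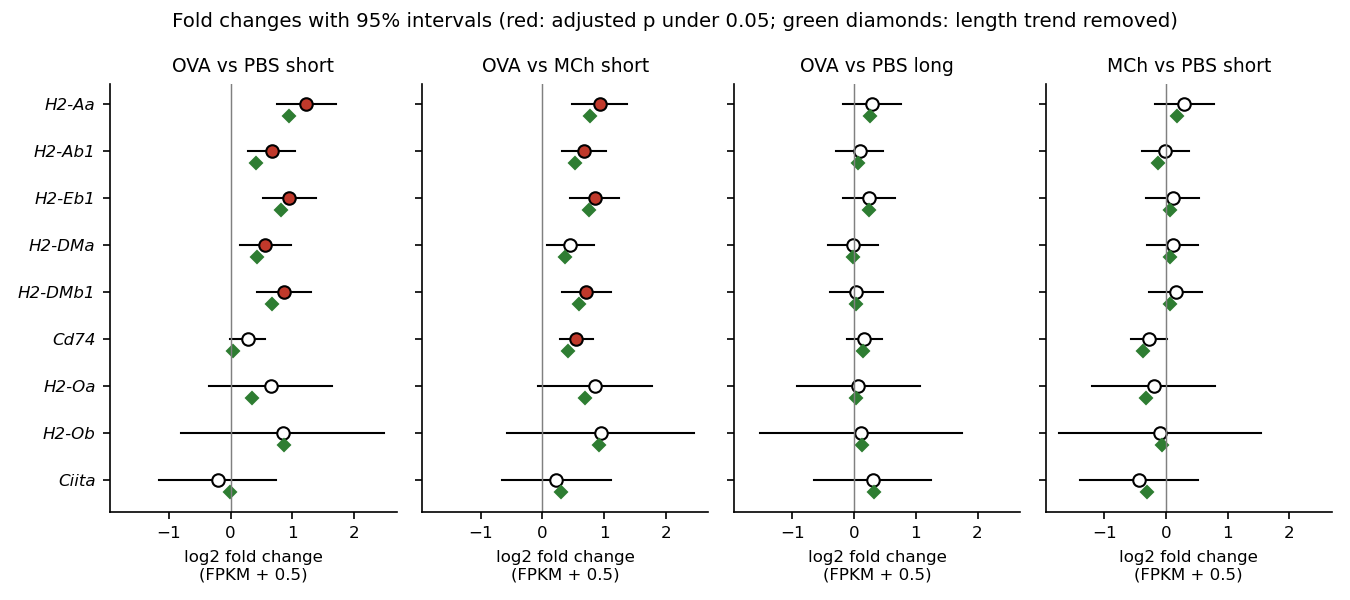
Log2 fold changes of the 9 genes with 95% intervals in 4 comparisons, red where the adjusted p was under 0.05, with green diamonds for the fold change after removal of the length trend. H2-Aa, H2-Eb1 and H2-DMb1 are well above 0 in both short OVA panels, and the intervals of all 9 genes include 0 for OVA against PBS in the long protocol.

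In the long protocol no rise of these genes was detected. None of the 9 was called in OVA against PBS, where 1.18% of all tested genes were called in either direction, and none had an unadjusted p under 0.05 (limma). H2-Aa read 241, 216 and 188 FPKM in long PBS and 291, 266, 201 and 301 FPKM in long OVA. The groups overlapped through long OVA c, and the log2 difference was 0.29 ± 0.23 with a 95% interval of -0.19 to 0.77 (adjusted p = 1). Cd74 read 1254, 1138 and 1018 FPKM in long PBS and 1231, 1346, 1082 and 1456 FPKM in long OVA, which also overlapped. The 9 differences ran from -0.02 for H2-DMa to 0.30 for Ciita, with a median of 0.11 against -0.017 over all tested genes.

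The change of the OVA effect between protocols was tested as an interaction. The long effect minus the short effect was -0.94 ± 0.32 for H2-Aa, -0.83 ± 0.29 for H2-DMb1, -0.71 ± 0.29 for H2-Eb1, -0.58 ± 0.28 for H2-DMa and -0.58 ± 0.26 for H2-Ab1. None of the 9 passed (limma, adjusted p = 0.164 for H2-Aa, the lowest), where 1.88% of all tested genes did, and 5 of them had an unadjusted p under 0.05. With weights for the libraries 5 were called, all lower in the long protocol, and 4 without the 4 libraries of low weight. In a fit of the PBS and OVA groups alone 5 were called, all lower. With the length trend removed none was called, where 81 of 15475 tested genes were called higher and 240 lower. The shares of all tested genes called with weights, without the low-weight libraries, or in PBS and OVA alone are not given here. The 5, 4 and 5 calls of those fits thus cannot be set against them.

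Between MCh and PBS lungs none of the 9 genes passed the test. In the short protocol none was called (0.00638% of all tested genes were) and in the long protocol none was called (0.0638%). None had an unadjusted p under 0.05 in the short protocol and 1 did in the long (limma). Cd74 was lower in every short MCh library than in every short PBS library (-0.28 ± 0.14, adjusted p = 0.675), as were 5.52% of all tested genes. H2-Aa read 311, 238, 205 and 511 FPKM in short MCh 1 to 4. Short MCh 4 thus fell in the range of the OVA libraries while the others were near PBS. The same library was the highest of its group for H2-Ab1 at 222, H2-Eb1 at 209.6, H2-DMa at 39.3 and H2-DMb1 at 63.7 FPKM. It also had the steepest length trend and the highest alveolar type 2 marker sum of the 22 libraries (32228 FPKM, against 18947 to 19741 in the other short MCh libraries). The part of either in these values was not tested.

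In the long protocol the H2-DO genes were lowest in MCh. H2-Ob read 4.68, 9.29 and 7.10 FPKM in long PBS and 0, 2.65, 4.75 and 3.25 FPKM in long MCh. H2-Oa read 0.998, 1.25 and 1.28 FPKM in long PBS and 0, 0.562, 0 and 0.675 FPKM in long MCh, with no overlap, where 10.5% of all tested genes were lower with no overlap. The values of 0 came from long MCh a and c, 2 of the 3 libraries with most genes at 0. Neither difference passed (-1.62 ± 0.78 for H2-Ob, adjusted p = 0.310, and -1.16 ± 0.48 for H2-Oa, adjusted p = 0.261). The summed B cell markers were also lower, at 47.5 to 61.8 FPKM in long MCh against 68.4 to 128 FPKM in long PBS. None of the 15 B cell markers was called, 8 were lower with no overlap, and their median difference was -1.09. Their part in the H2-DO values was not tested.

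OVA was also set against MCh, with the OVA libraries shared with the comparisons above. In the short protocol 5 of the 9 were called higher, where 9.37% of all tested genes were: H2-Aa (0.93 ± 0.21, adjusted p = 0.00440), H2-Eb1 (0.85 ± 0.19, adjusted p = 0.00356), H2-DMb1 (0.71 ± 0.19, adjusted p = 0.0153), H2-Ab1 (0.68 ± 0.17, adjusted p = 0.00862) and Cd74. Cd74 read 976, 1124, 998 and 1158 FPKM in short MCh, below every short OVA library, and the log2 difference was 0.55 ± 0.13 (adjusted p = 0.00453). Both Cd74 transcripts rose in this comparison, the longer by 0.72 ± 0.12 and the shorter by 0.50 ± 0.12 (adjusted p = 0.000848 and 0.0149, limma over all tested transcripts). H2-Eb1 and Cd74 were the 2 of the 9 whose OVA libraries all lay above all MCh libraries, as did 11.8% of all tested genes. Without short MCh 4 H2-DMa was called as well (0.64, adjusted p = 0.00466). In a fit of the short OVA and short MCh libraries alone only H2-Eb1 and Cd74 of the 9 remained called. The share of all tested genes called in that fit is not given here.

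In the long protocol none of the 9 was called in OVA against MCh, where 6.06% of all tested genes were, and 4 had an unadjusted p under 0.05 (limma). H2-Ob was higher in every OVA library than in every MCh library (1.73 ± 0.73, adjusted p = 0.148), as were 9.6% of all tested genes. Cd74 had the lowest adjusted p (0.37 ± 0.13, adjusted p = 0.0842). Without long MCh d, Cd74 (0.44, adjusted p = 0.0328), H2-Oa (1.44, adjusted p = 0.0456) and Ciita (1.35, adjusted p = 0.0430) were called. The share of all tested genes called without that library is not given here. Between PBS lungs of the 2 protocols none of the 9 genes was called (0.166% of all tested genes were called, and none of the 9 had an unadjusted p under 0.05, limma). H2-Eb1 was lower in every long than in every short PBS library (-0.35 ± 0.22, adjusted p = 1), as were 9.16% of all tested genes. For the change of the MCh effect between protocols none of the 9 and 0% of all tested genes were called, with 989 genes and none of the 9 at an unadjusted p under 0.05 (limma).

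Markers of macrophages and of dendritic cells were mostly higher in short OVA, while those of alveolar type 2 cells were mixed. In whole lung, fewer cells of a type and less RNA per cell cannot be told apart. Of 18 macrophage and monocyte markers 12 rose and 1 fell in short OVA, where 12.4% of all tested genes rose and 11.7% fell. The summed level of the 18 was 5564 to 8018 FPKM against 502 to 577 FPKM in short PBS. The sum is weighted to abundant genes: the median of the 18 log2 differences was 1.54, with a range from -0.89 to 4.88. Of 19 dendritic cell markers 8 rose and none fell, with a sum of 343 to 437 FPKM against 175 to 204 FPKM. The median of the 19 log2 differences was 0.61, with a range from -1.15 to 3.89. With no overlap 10 were higher and 2 lower, as were 3646 and 4572 of the 15682 tested genes. Mgl2, a lectin of dendritic cells and macrophages, rose from 4.41 ± 1.13 to 49.7 ± 5.50 FPKM (SD, n = 3 and 4, adjusted p = 6.05e-09). Alveolar type 2 markers, of which 3 of 10 rose and 3 fell, summed to 22470 to 24541 FPKM against 17849 to 20772 FPKM. None of these markers was listed at 0 in short PBS or short OVA, and their part in the class II changes was not tested.

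In long OVA these sums stayed above those of long PBS. The macrophage and monocyte sum was 2198 to 3171 FPKM against 490 to 1241 FPKM, with 7 of 18 markers called higher and none called lower. Of the 15682 tested genes 161 were called higher and 24 lower. The median of the 18 log2 differences was 0.38. With no overlap 11 of these markers were higher and 2 lower. The dendritic cell sum was 273 to 332 FPKM against 216 to 262 FPKM, with 1 of 19 called higher and none lower. The median of the 19 log2 differences was 0.12. With no overlap 2 of them were higher and 2 lower, as were 1560 and 2064 of the 15682 tested genes. None of the 9 genes was called there.

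The H2-DO genes varied with B cell markers. None of 15 B cell markers was called in OVA against PBS in the short protocol (limma). Still, 13 of the 15 log2 differences were above 0, as were 6993 of the 15682 tested genes, and their median was 0.85. The sum of the B cell markers differed widely within groups. It was 271 FPKM in short PBS 2 against 45.7 and 41.7 FPKM in the other PBS libraries. In short MCh 1 it was 244 FPKM, against 32.3 to 49.9 FPKM in the other short MCh libraries. In short OVA it ran from 121 to 188 FPKM. H2-Ob was at 25.1 FPKM in short MCh 1 and at 3.37, 2.58 and 2.79 FPKM in short MCh 2 to 4. H2-Oa was at 3.66 FPKM in short MCh 1 and at 0.743, 0.620 and 1.13 FPKM in the others. The 2 libraries with the highest B cell marker sums were thus the 2 with most H2-Ob and H2-Oa. T cell markers stood out in the same libraries. The sum of 13 T cell markers was 111 FPKM in short PBS 2 and 127 FPKM in short MCh 1, against 32.5 to 42.5 FPKM in the other short PBS and MCh libraries and 89.8 to 122 FPKM in short OVA. The relation of H2-Ob and H2-Oa to T cell markers was not tested.

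Over the 22 libraries, with group means subtracted, H2-Ob followed the B cell marker sum with r = 0.825 (Pearson, permutation within groups, p = 2e-05, adjusted p = 0.00072) and rho = 0.848 (Spearman, permutation p = 4e-05, adjusted p = 0.00144). H2-Oa followed it with r = 0.848 (permutation p = 0.00065, adjusted p = 0.0117) and rho = 0.746 (permutation p = 0.00113, adjusted p = 0.0203). Without short MCh 1 and short PBS 2, the libraries farthest from the median, r was 0.659 for H2-Ob and 0.701 for H2-Oa. H2-Aa (r = 0.315, permutation p = 0.395, adjusted p = 0.619) and Cd74 (r = -0.092, permutation p = 0.651, adjusted p = 0.818) did not pass. These were 4 of 36 relations between the 9 genes and the summed markers of 4 cell types, adjusted together. No relation passed other than those of H2-Ob and H2-Oa with B cell markers.

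**Figure D3:**
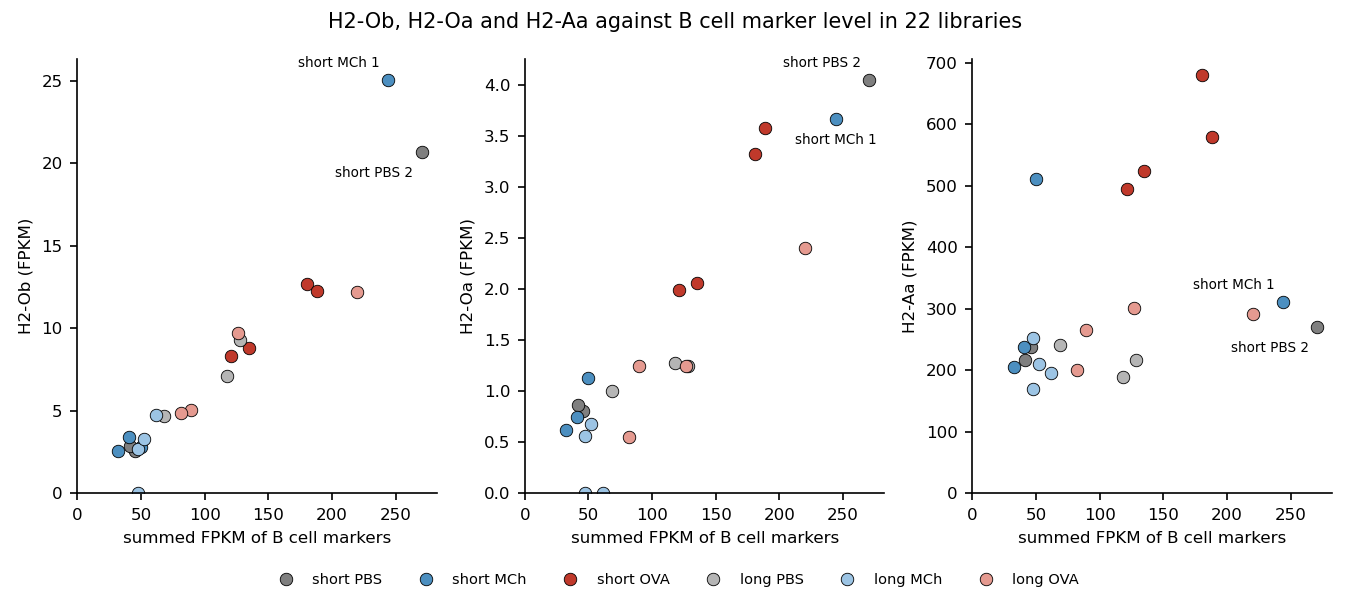
FPKM of H2-Ob, H2-Oa and H2-Aa (vertical) against the summed FPKM of 15 B cell markers (horizontal) in 22 libraries, colored by group, on linear axes. H2-Ob and H2-Oa climb with the marker sum to short PBS 2 and short MCh 1, while H2-Aa in those libraries is 271 and 311 FPKM, below all 4 short OVA libraries.

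The 9 genes thus fell into groups by how they varied among libraries of the same condition. The following Pearson r values over 22 libraries with group means subtracted are a description, since genes of a library share its depth and length trend. H2-Aa, H2-Ab1, H2-Eb1, H2-DMa and H2-DMb1 followed each other with r from 0.824 to 0.958, the highest being H2-Aa with H2-Eb1. Cd74 followed these 5 with r from 0.585 for H2-Aa to 0.849 for H2-Ab1. H2-Oa and H2-Ob followed each other with r = 0.785. Ciita followed H2-Ob with r = 0.730 and H2-Oa with r = 0.443, and the other 6 genes with r from -0.342 to 0.027. In long MCh a, where 34.3% of genes were listed at 0, Ciita read 1.09 FPKM and both H2-DO genes 0. The r values without this library were not computed. Ciita did not pass with the B cell marker sum (Pearson r = 0.267, permutation within groups, p = 0.155, adjusted p = 0.328).

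Among other genes the closest in pattern to the mean of H2-Aa, H2-Ab1, H2-Eb1 and Cd74 were found among 12763 genes of at least 1 FPKM. By Pearson r over the 22 libraries they were H2-Ea-ps (0.980), the immunoproteasome subunit Psmb8 (0.964), Erp29 (0.948), Ciao2a (0.938) and the proteasome activator subunit Psme2 (0.931). With group means subtracted they were H2-Ea-ps (0.930), Psmb8 (0.923), Psmb9 (0.916), H2-T23 (0.861) and Gmfg (0.843). H2-Ea-ps and Psmb8 led both lists. By Spearman's rho the first 5 were H2-Ea-ps, Psmb8, Ifi30, Sh3bgrl3 and Psmb10. With group means subtracted they were H2-Ea-ps, Psmb8, Psmb9, Tifab and Wdr61. The genes other than H2-Ea-ps, Psmb8 and Psmb9 thus depended on the measure.

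The deposited transcript table lists Ciita transcripts from several start sites, and the gene is known to use alternative first exons in different cell types. On mm10 the 3 distal transcripts start at position 10480059 or 10480164 of chromosome 16, a middle one at 10488279 and a proximal one at 10489781. The distal transcripts summed to 2.45, 2.89 and 3.50 FPKM in short PBS and to 4.50, 4.43, 5.02 and 5.89 FPKM in short OVA. These groups did not overlap, and the distal share of all Ciita transcripts was 25.9 to 37.9% in short PBS and 47.9 to 68.7% in short OVA. In the long protocol the groups overlapped, at 1.59 to 2.75 FPKM in PBS and 1.26 to 6.18 FPKM in OVA. The highest distal sum of the 22 libraries was in long MCh c, at 6.74 FPKM or 97.4% of Ciita. In that library 33.8% of genes were listed at 0. Its distal sum was all given to 1 transcript, NM_001302619, and its proximal transcript was at 0. The proximal transcript was at 1.45 to 9.56 FPKM in short PBS and 1.27 to 2.91 FPKM in short OVA. No single Ciita transcript passed in OVA against PBS (limma over all tested transcripts, adjusted p = 0.347 to 0.935), and the sum and the share were not tested.

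The middle start was high in single libraries. It was at 6.81 FPKM in short PBS 2 and 5.10 FPKM in short MCh 1, against 0 and 0.238 FPKM in the other short PBS libraries and 0 to 0.446 FPKM in the other short MCh libraries. It made up 61.1% of Ciita in short PBS 2 and 48.6% in short MCh 1, the 2 libraries with the highest B cell marker sums. In long OVA d it was at 5.91 FPKM, where the B cell marker sum was 127 FPKM. Transcripts of 1 gene share most of their sequence, so these splits are estimates, and in long MCh a all of the Ciita signal (0.821 FPKM) was given to distal starts.

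**Figure D4:**
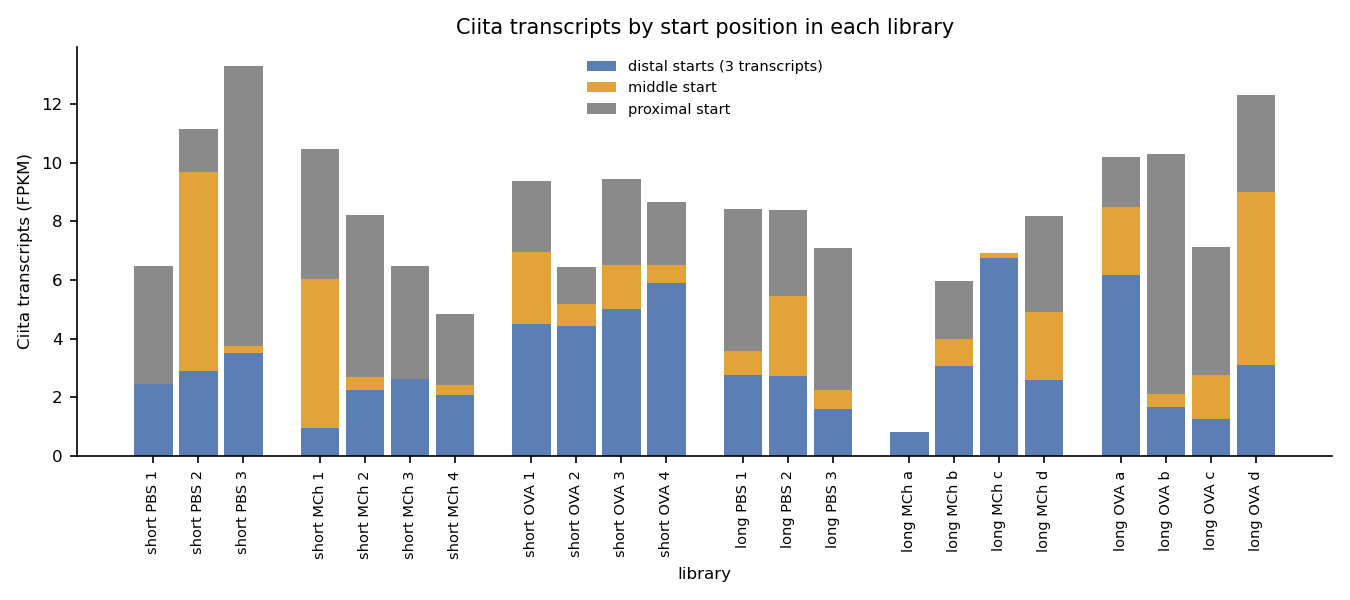
FPKM of Ciita transcripts stacked by start site (distal, middle or proximal on chromosome 16) in each of the 22 libraries, on a linear axis from 0. The distal part is 4.43 to 5.89 FPKM in the 4 short OVA libraries and 2.45 to 3.50 FPKM in the 3 short PBS libraries, and the middle part is largest in short PBS 2 at 6.81 FPKM.

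Other genes of the pathway were described by lists. Of 24 genes that control class II transcription, 6 rose and 5 fell in short OVA, with a median of -0.13. Over all tested genes 12.4% rose and 11.7% fell in this comparison, against which the counts of this and the following lists are to be read. Those with the smallest p were the interferon receptor chain Ifngr2, from 85.9 ± 4.90 to 219 ± 30.3 FPKM (log2 difference 1.34 ± 0.17, adjusted p = 1.90e-05), and Ifng, which encodes interferon-γ, an inducer of Ciita, from 0.121 ± 0.086 to 1.32 ± 0.30 FPKM (1.54 ± 0.21, adjusted p = 2.73e-05; SD, n = 3 and 4). The myeloid factor Spi1 rose by 1.09 ± 0.17 (adjusted p = 0.000123) and the lymphoid and dendritic cell factor Irf4 by 2.53 ± 0.43 (adjusted p = 0.000290). Those that fell, named after their values were seen, were the acetyltransferases Crebbp and Ep300, the coactivator Ncoa1, the methyltransferase Kmt2a and the interleukin-4 signalling factor Stat6, by 0.38 to 1.05 on the log2 scale. Their fold changes with the length trend removed are not given here. Long transcripts read relatively lower in short OVA, and the part of this trend in these falls was not tested. The X box factors Rfx5, Rfxank and Rfxap, the Y box factors Nfya, Nfyb and Nfyc, and Creb1 were among the 13 that did not pass.

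Of 17 genes for endosomal processing and class II trafficking 10 rose and none fell, with a median of 0.51. Cathepsin S (Ctss), the protease that trims the invariant chain in antigen-presenting cells, went from 148 ± 27.5 to 667 ± 116 FPKM (2.17 ± 0.20, adjusted p = 3.39e-07; SD, n = 3 and 4). Ctsb rose by 1.51 ± 0.15, Lgmn, an asparaginyl endopeptidase of endosomes, by 1.47 ± 0.16 and Ctsz by 1.60 ± 0.17 (adjusted p = 4.80e-07, 1.64e-06 and 2.09e-06). In long OVA 4 of the 17 rose and none fell. Ctss went from 163 ± 29.1 to 307 ± 46.3 FPKM (0.91 ± 0.20, adjusted p = 0.0282; SD, n = 3 and 4), and Ctsb, Ctsz and Ctsd were the others. These proteases were thus called in the long protocol where the class II chains were not.

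Of 12 genes for costimulation and class II ligands 7 rose and none fell in short OVA, with a median of 0.98. Pdcd1lg2, a ligand of the inhibitory receptor PD-1, went from 0.922 ± 0.439 to 19.6 ± 6.43 FPKM (3.80 ± 0.34, adjusted p = 1.58e-07; SD, n = 3 and 4). Cd83, a maturation marker of dendritic cells, went from 4.06 ± 2.39 to 19.6 ± 1.96 FPKM (2.26 ± 0.37, adjusted p = 0.000234), Cd40 rose by 1.19 ± 0.18 (adjusted p = 7.84e-05) and Tnfsf4 by 0.90 ± 0.19 (adjusted p = 0.00188). None of the 12 was called in long OVA (limma).

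Of 23 class I presentation genes 7 rose and none fell in short OVA, with a median of 0.20. Pdia3 and Calr, chaperones of the peptide-loading complex, rose by 0.61 ± 0.08 and 0.58 ± 0.10 (adjusted p = 2.46e-05 and 0.000313), Psme2 by 0.97 ± 0.17 (adjusted p = 0.000404) and the immunoproteasome subunit Psmb10 by 0.72 ± 0.17 (adjusted p = 0.00411). The class I heavy chains H2-K1 (0.11 ± 0.18, adjusted p = 0.699) and H2-D1 (-0.03 ± 0.13, adjusted p = 0.910), named after their values were seen, did not pass. None of the 23 was called in long OVA.

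A list of other class II and neighbouring genes held 5 measured ones, of which 2 rose and none fell in short OVA. They were H2-Ea-ps and H2-DMb2, given above, and H2-Eb2, Btnl2 and BC051142, which did not pass in short OVA. H2-Eb2, a class II β-like gene, was at 0.405, 3.69 and 0.246 FPKM in short PBS and 2.94, 1.39, 2.44 and 1.03 FPKM in short OVA, with short PBS 2 above all OVA libraries as for H2-Ob. In long OVA it read 9.21, 4.12, 2.16 and 2.66 FPKM against 0.687, 1.12 and 1.04 FPKM in long PBS. These groups did not overlap, where 9.95% of all tested genes were higher with no overlap, but the difference did not pass either.

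**Figure D5:**
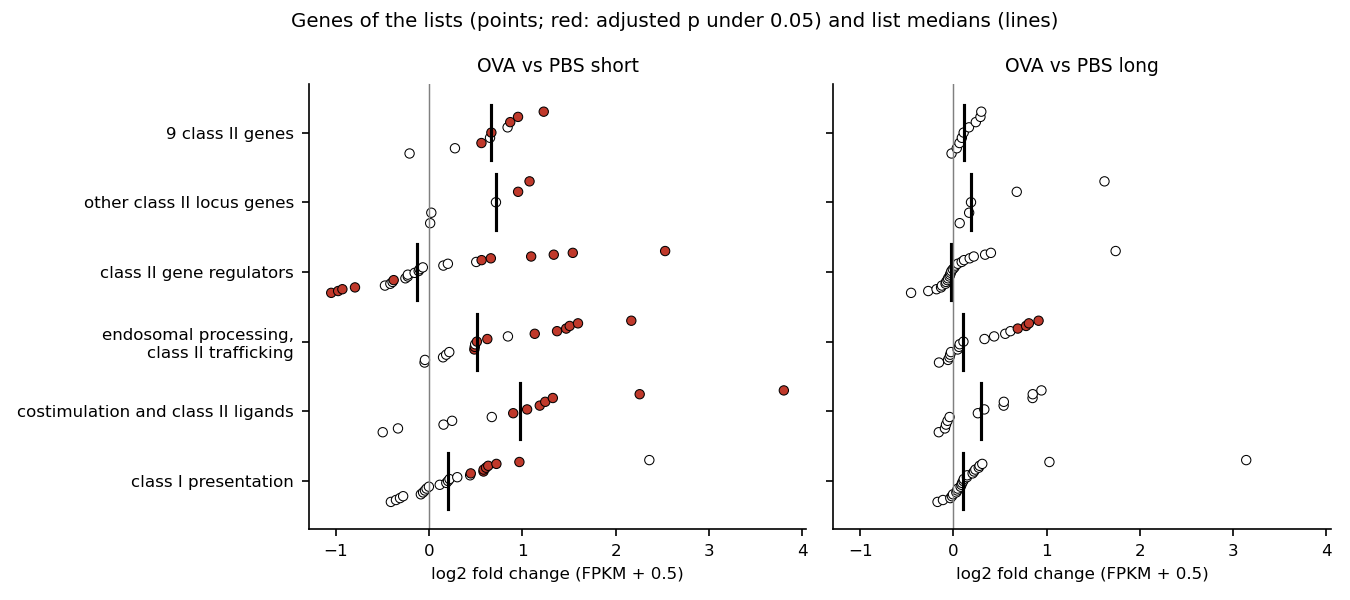
Log2 fold changes of OVA against PBS for the 9 genes and for 5 lists of pathway genes in the short protocol (left) and the long protocol (right), with points for genes, red where the adjusted p was under 0.05, and lines for list medians. In the short protocol the medians are 0.67 for the 9 genes and 0.98 for costimulation, and in the long protocol 4 endosomal proteases are the only red points.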

How the data were processed

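The authors deposited FPKM for genes and for transcripts. The submitters' processing notes list STAR, Trim Galore, DESeq2 and the mm10 build without roles or versions. Which program computed FPKM, on which annotation, is not given in the sources used here. The labels' protocols name RNeasy extraction and TruSeq stranded total RNA libraries. Depth could not be recovered: under the best step per library, 45.4 to 63.4% of low values were within 0.1 of a whole fragment, so it is treated as unknown. The 9 genes, the lists and the alternatives were chosen with earlier results of these data known.

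Genes with FPKM of at least 0.1 in at least 3 of the 22 libraries were tested on log2(FPKM + 0.5), a scale that understates changes of low genes, with limma 3.58.1 in R 4.3.3 (1 coefficient per group, 6 groups, eBayes with an intensity trend, two-sided, Benjamini-Hochberg per comparison). The spread is that between mice. For the length-corrected values each library's lowess trend of deviations with GENCODE transcript length was subtracted. Marker relations used 100000 permutations within groups. The steps were tested on simulated data. All 9 genes are named, and from each list up to 4 genes with the smallest p in OVA against PBS in the short protocol. Alternatives were other pseudocounts, filters, scalings, weights, transcript sums, a replicate block and left-out libraries.

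List names without a row of their own in the gene table, among them Marchf1 and Marchf8, were not used.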

Additional observations from a re-analysis of the deposited data

Results flagged for a closer look

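Dixon's test was applied to the 9 genes in the 4 groups of 4 libraries (36 tests, of which chance flags about 1 in 20), and 3 stood out, all highest in short MCh. H2-Ob in short MCh 1 was at 25.1 FPKM, where the next library was at 3.37 FPKM. H2-Oa in the same library was at 3.66 FPKM, where the next was at 1.13 FPKM. This library also had 244 FPKM of summed B cell markers. H2-DMa in short MCh 4 was at 39.3 FPKM, where the next library was at 24.1 FPKM, and this library had the steepest length trend of the 22.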

How the results depend on the processing

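No called fold change of the 9 genes reversed under any alternative. For OVA against PBS in the short protocol the count of 5 became 3 with the length trend removed and 3 to 4 when 1 library was left out, 3 being without short PBS 1. For OVA against MCh in the short protocol the count of 5 became 8 with array weights and 8 without the 4 low-weight libraries (short MCh 1, short MCh 4, long MCh a and long MCh c), and 2 when only short MCh and short OVA were fitted. For OVA against MCh in the long protocol the count of 0 became 3 with array weights, 2 without short PBS 2 and short MCh 1, and 0 to 3 when 1 library was left out, 3 being without long MCh d. For the long minus short OVA effect the count of 0 became 5 with array weights, 4 without the 4 low-weight libraries, 5 when only PBS and OVA were fitted and 2 without short MCh 4. Leaving out short MCh 4, or short PBS 2 with short MCh 1, was chosen after seeing the data. The cause of these changes was not tested. The shares of all tested genes called with array weights, left-out libraries or fewer groups are not given here. These counts thus do not show whether a change was particular to the 9 genes. Scaling moved all genes in OVA against MCh in the long protocol, where their median was 0.14 and became -0.04 with quantile normalization, which changed 745 higher and 206 lower calls to 452 and 447; in the short protocol 1469 and 912 became 1445 and 1462.

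Among the lists in short OVA, the other class II locus genes went from 2 called to 1 with the length trend removed, where H2-Ea-ps, which has no listed length, was not in the fit. Class II regulators went from 11 called to 18 with array weights and 17 without the low-weight libraries. Costimulation genes went from 7 to 4 with a pseudocount of 0.1. Class I genes went from 7 to 11 with array weights, 11 without the low-weight libraries and 13 when only short PBS and short OVA were fitted. As the shares of all tested genes called in these fits are not given here, a change may not be particular to a list.

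Same-numbered mice did not deviate together: over 18 pairs the median correlation of their deviations was -0.03, and 3 of the 18 pairs exceeded 0.1. With the number as a replicate block among the numbered libraries, 4 of the 9 genes were called in OVA against PBS in the short protocol, H2-DMa being lost (0.48, adjusted p = 0.0887). The regulators called became 7 and the class I genes 4. The share of all tested genes called with the block is not given here. The spread between 3 or 4 mice and the unknown depth limit what can be said of the low genes H2-Oa and H2-Ob.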
